A study of Mus musculus with 6 samples.

Results

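Translation factors are the proteins that work with the ribosome to read an mRNA, and the genes described here are the 47 that the deposited transcript table names under Eef1, Eef2 or Eif1 to Eif6, or as Pabpc1 or Naca. Members were taken by name alone: the gene name had to hold no comma, since a comma marks a transcript laid to several overlapping genes, and had to begin with one of those stems or be Tpt1, Pabpc1, Naca or Btf3. The 47 genes held 238 of the 36659 transcripts in the table, of 6357 single gene names in all. The series comprises 6 single cells from the brain of CD-1 mice, with the developmental stage given as embryo for each: 2 vascular and leptomeningeal cells (VLMC-1 and VLMC-2), 2 immature oligodendrocytes (Oligo1-1 and Oligo1-2) and 2 mature oligodendrocytes (Oligo5-1 and Oligo5-2). Where a pair of values is given for a cell type, that of the cell numbered 1 comes first. The polyadenylated RNA of each captured cell was turned into full-length cDNA, tagged with a 6-letter unique molecular identifier (UMI) and sequenced on the Pacific Biosciences platform in 2 runs, the second one enriched for long molecules. A transcript is 1 UMI of 1 cell, with the positions of its start, its exons and its end. No genotype or treatment is given for any cell, no cell is tied to an animal, and a cell type is therefore 1 sample here, with no test between types.

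The sample labels call the VLMCs oligodendrocyte progenitor cells, whereas the study's text calls them VLMCs. Of 10 VLMC marker genes, 7 were found in VLMC-1 and 9 in VLMC-2, making up 4.11% and 5.10% of their transcripts, and none in any oligodendrocyte. Of 10 progenitor markers, 1 gene was found in each VLMC, with 5 and 3 transcripts, and 1 in Oligo1-1, with 4. The 10 oligodendrocyte markers made up 9.19% to 14.3% of the transcripts of the 4 oligodendrocytes and were absent from both VLMCs. Oligo5-2 also held 55 transcripts (0.886%) of 8 of 10 neuron markers, where the other cells had 0 to 3. Microglial markers were at 0 in every cell, endothelial markers had 3 transcripts in Oligo5-1 and none elsewhere, and astrocyte markers had 21 in VLMC-2, 17 in Oligo5-2 and at most 5 in the others. The cells differed in depth from 2338 transcripts (VLMC-1) to 11483 (Oligo1-1), and in the share of transcripts that began in the annotated first exon from 12.3% (Oligo1-2) to 47.9% (Oligo5-2).

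Initiation factors (eIFs) bring the small ribosomal subunit and the initiator tRNA to the start codon: eIF4 factors bind the cap and unwind the leader, eIF3 is the large scaffold on the small subunit, eIF2 carries the initiator tRNA, eIF1 and eIF1A hold the scanning complex open, and eIF5 and eIF5B close initiation. Elongation factors then deliver the aminoacyl tRNAs (eEF1A, recharged by the eEF1B complex) and move the ribosome along (eEF2). The mRNAs of elongation factors, of Tpt1 and Pabpc1 and of ribosomal proteins are known as TOP mRNAs, for a terminal oligopyrimidine tract: they begin with a C followed by an unbroken run of pyrimidines, through which growth signals control their translation as a group.

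The family made up 0.649% of all transcripts (238 of 36659, 95% interval 0.570 to 0.737). All intervals of shares are exact binomial intervals, the limit given for a count of 0 is 3 counts of the total, and both cover counting error only. In the VLMCs the share was 0.556% (13 of 2338, 0.296 to 0.949) and 0.789% (37 of 4689, 0.556 to 1.09). The Oligo1 cells had 0.583% (67 of 11483, 0.452 to 0.740) and 0.530% (32 of 6043, 0.362 to 0.747), the latter at 0.260% (4 of 1537) when only UMIs read 2 or more times were kept. The Oligo5 cells had 0.780% (46 of 5895, 0.572 to 1.04) and 0.692% (43 of 6211, 0.501 to 0.931). VLMC-2 stood highest and VLMC-1 second lowest, and all 6 intervals overlapped, so no order by cell type was detectable at this depth. For comparison, 20 cytosolic ribosomal protein genes together held 116 transcripts, or 0.316%. The 238 transcripts rest on 486 reads, and 142 of them were read once.

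Most members were rare. The median member had 4 transcripts over the 6 cells, against 2 for the 6310 other names, and 8 members (17.0%) had a single transcript, against 34.3% of other names. There were 33 members with 3 or more transcripts, 18 with 5 or more, 7 with 10 or more and 1 with 20 or more. Only 3 members (Eif3d, Eif4g2 and Eif4g3) were found in all 6 cells and 5 (Eef1b2, Eif1b, Eif3a, Eif3c and Eif4a2) in 5 cells, while 12 were found in 1 cell. A gene with no transcript in a cell could still make up to 0.128% of VLMC-1 or 0.0261% of Oligo1-1, 3 counts of the total in the shallowest and the deepest cell.

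The most abundant member was Eif4g2, which encodes a relative of the eIF4G scaffold that lacks the region binding eIF4E. Of its 21 transcripts the VLMCs held 1 and 2, the Oligo1 cells 7 each and the Oligo5 cells 1 and 3. As a share of the transcripts of the cell this came to 0.0428% and 0.0427% in the VLMCs, 0.0610% and 0.116% in the Oligo1 cells, and 0.0170% and 0.0483% in the Oligo5 cells. The Oligo1 cells held the highest shares and Oligo5-1 the lowest, and the VLMCs lay between the oligodendrocytes.

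Eef1b2, which encodes the nucleotide exchange subunit that recharges eEF1A, followed with 17 transcripts: 3 and 4 in the VLMCs, 8 and 0 in the Oligo1 cells, and 1 in each Oligo5 cell. The VLMCs stood at 0.128% and 0.0853% of their transcripts and the oligodendrocytes between 0% and 0.0697%. The shares of the VLMCs were therefore above those of all 4 oligodendrocytes, although Oligo1-1 had the most molecules. This order rests on the UMIs of VLMC-2, which form 2 pairs of the same letters shifted by 1 base. With UMIs joined that differ by 1 substitution or a shift of 1 base, VLMC-2 held 2 of 3439 transcripts (0.0582%) and Oligo1-1 held 8 of 8361 (0.0957%), and the shares overlapped.

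Eif3c, a core subunit of eIF3, had 14 transcripts: 0 and 4 in the VLMCs, 6 and 2 in the Oligo1 cells, and 1 in each Oligo5 cell. Eif3a, the largest eIF3 subunit, had 12, of which 7 came from Oligo5-1, 2 from Oligo5-2, and 1 each from VLMC-2, Oligo1-1 and Oligo1-2. Neither gene was found in VLMC-1, the shallowest cell, and a single cell gave 6 of the transcripts of Eif3c and 7 of those of Eif3a. Eif4g3, an eIF4G that does bind eIF4E, had 11: 1 and 4 in the VLMCs, 2 and 1 in the Oligo1 cells, and 1 and 2 in the Oligo5 cells. Eif3d and Eif3l, both eIF3 subunits, had 10 each, Eif3d with 1 or 2 in every cell and Eif3l with 4 and 2 in the Oligo1 cells, 3 and 1 in the Oligo5 cells and none in either VLMC.

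**Figure D1:**
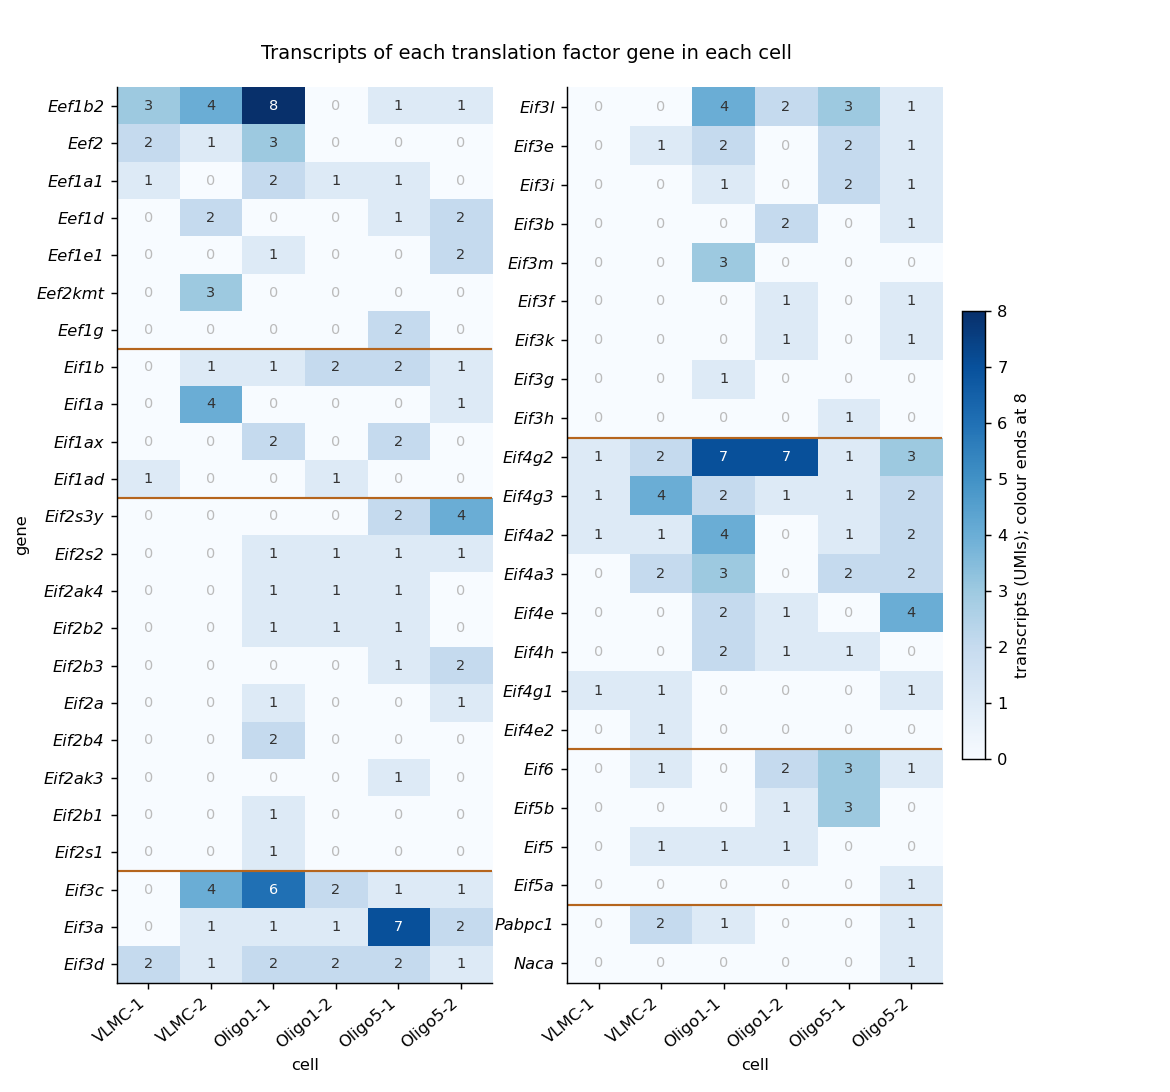
Transcripts (UMIs) of each of the 47 translation factor genes in each of the 6 cells, with genes in rows grouped by role as read from the name, cells in columns, the count printed in each field and shown by colour, and lines between the groups. Eif4g2 is the most frequent with 21, and most fields hold 0 to 2 transcripts.

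By role, as read from the names, the eIF3 subunits held 68 transcripts of 12 genes and the eIF4 factors 65 of 8 genes. The elongation factors, here all members named Eef and so also Eef1e1 and Eef2kmt, held 41 of 7 genes. Their share of the cell was 0.257% and 0.213% in the VLMCs, 0.122% and 0.0165% in the Oligo1 cells, and 0.0848% and 0.0805% in the Oligo5 cells. The intervals of VLMC-2 (0.102 to 0.392) and Oligo1-1 (0.0667 to 0.204) overlapped. The members named Eif2 had 26 transcripts of 10 genes, all in oligodendrocytes: 8 and 3 in the Oligo1 cells, 7 and 8 in the Oligo5 cells. They encode eIF2, its exchange factor eIF2B, the kinases that phosphorylate eIF2, and eIF2A (Eif2a, 2 transcripts), a separate protein. In the VLMCs there were 0 of 7027 transcripts, which allows a share of up to 0.0427% (3 counts), and in the oligodendrocytes 26 of 29632 (0.0877%, 0.0573 to 0.129). Of these 26, 6 were of Eif2s3y, described below. By cell, the limit for 0 was 0.128% in VLMC-1 and 0.0640% in VLMC-2, both above the share of 0.0496% in Oligo1-2. How often other groups of genes show such a pattern was not tested. The remaining groups were smaller, with 18 transcripts for members named Eif1, 15 for eIF5, eIF5A, eIF5B and eIF6, and 5 for Pabpc1 and Naca. Of those 18, 2 were of Eif1ad, which encodes neither eIF1 nor eIF1A.

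Whether a gene's share differed between the 2 VLMCs and the 4 oligodendrocytes was described by the overlap of the shares, without a test. Among genes of 20 or more transcripts, the shares of the VLMCs and of the oligodendrocytes did not overlap for 0 of 1 member (Eif4g2), against 53.6% of the 220 names of that depth. Without Oligo5-1, the cell with its lowest share, Eif4g2 would count as 1 of 1, higher in oligodendrocytes. At a minimum of 10 transcripts, 3 of 7 members did not overlap, against 38.3% of 669 names. Eef1b2 and Eif4g3 were higher in the VLMCs (12.7% of names) and Eif3l in the oligodendrocytes (25.6% of names). For Eif4g3 the lowest VLMC share was 0.0428% and the highest oligodendrocyte share 0.0322%, a difference that rests on single molecules. With UMIs that differ by 1 substitution or a shift of 1 base joined, an alternative chosen after seeing the data, 5 members kept 10 or more transcripts and 1 of them (Eif3l) did not overlap. Eef1b2 then overlapped, and Eif4g3 fell to 9 transcripts. As deposited, Eif3l had 0 transcripts in each VLMC and 1 in Oligo5-2. The limit for 0 in VLMC-2 (0.0640%) is above its highest oligodendrocyte share (0.0509%, Oligo5-1), so this call also rests on few molecules.

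The elongation factors of the TOP class were sparse in this table. Eef1a1, the carrier of aminoacyl tRNA and among the most abundant mRNAs of most cells, had 5 transcripts, each read once: 2 in Oligo1-1, and 1 in each of VLMC-1, Oligo1-2 and Oligo5-1. Eef2, the translocase, had 6: 2 in VLMC-1, 1 in VLMC-2 and 3 in Oligo1-1. Pabpc1, which binds the poly(A) tail, had 4, of which VLMC-2 gave 2, and Oligo1-1 and Oligo5-2 gave 1 each. Naca, a subunit of the complex that meets nascent chains at the ribosome, had 1 transcript, in Oligo5-2. Btf3, the other subunit of that complex, had none in any cell, and neither had Tpt1.

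These counts were set beside the number of near-identical copies in the genome, since the authors kept only molecules that aligned to 1 place. A copy is an annotated pseudogene at least 90% identical over at least 50% of a coding form of the gene. Of the 72 annotated protein-coding genes that the naming rule takes in, 47 had a transcript under that name and 25 had none. The copies were counted for all 72, with 2 more (Eef1akmt1 and Eef1akmt2, methyltransferases of eEF1A) found with 1 transcript each under older symbols. Eif1, the factor that guards start codon choice, had 20 copies and no transcript. Eef1a1 had 13 copies and 5 transcripts, Btf3 had 7 copies and Tpt1 5, with no transcript of either. Eif4a1, the main helicase of the cap complex, had 3 copies and no transcript.

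Genes with no copy included Eif4g2 and Eef1b2, the most abundant members, and Eif1b, the paralog of Eif1, with 7 transcripts. A transcript was found for 29 of the 44 genes with no copy (65.9%), for 19 of the 24 with 1 to 4 copies (79.2%) and for 1 of the 4 with 5 or more (25%, 0.631 to 80.6). Over all protein-coding genes the shares were 29.3% (5605 of 19119), 30.0% (569 of 1899) and 6.33% (49 of 774). Of the cytosolic ribosomal protein genes with 5 or more copies, 13 of 62 had a transcript (21%). None of the 91 distinct copies of the members was itself named in the table. They were looked up by their GENCODE names alone, whereas the table was named from RefSeq, so this does not show whether reads fell on them. The part of the copies in these low counts was not tested, and 15 of the 44 genes with no copy had no transcript either.

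**Figure D2:**
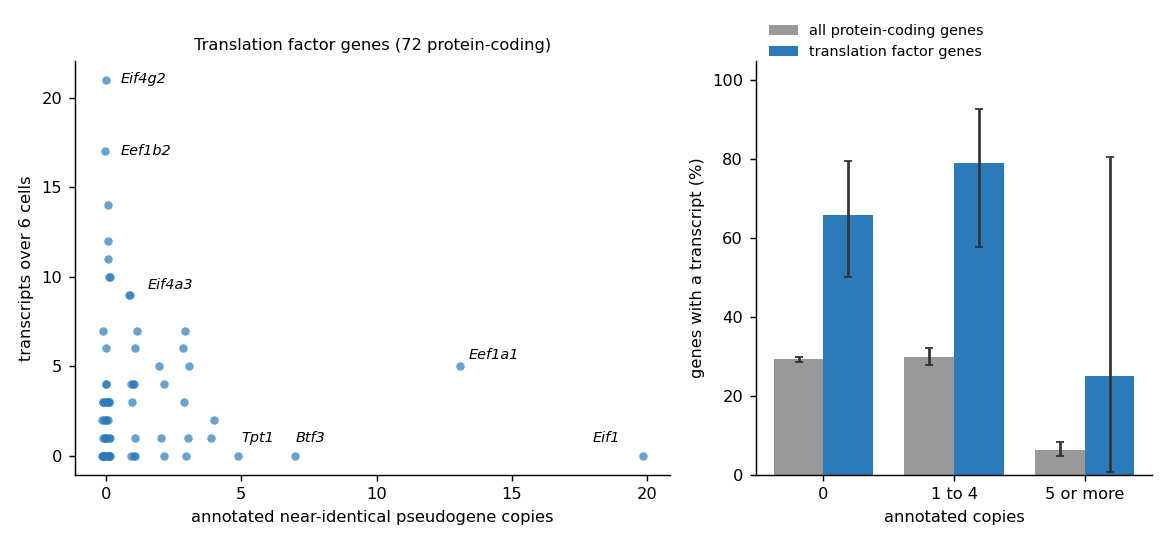
Left, transcripts over the 6 cells (vertical axis) against the number of annotated near-identical pseudogene copies (horizontal axis) for the 72 protein-coding translation factor genes, each point 1 gene, moved sideways a little so that points can be told apart. Right, the percentage of genes with a transcript by number of copies, with exact 95% intervals, for translation factor genes and all protein-coding genes; the latter falls from 29.3% with no copy to 6.33% with 5 or more.

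The first letters of the transcripts were read next, because a TOP mRNA is defined by them. Over the 107 member transcripts that began in the annotated first exon or up to 50 bp before it, the start was called of the TOP type where its first base was C and at least 4 more C or T followed. The sequences below are from GRCm38, read along the strand of the gene from GENCODE M21 transcripts and RefSeq promoter windows. Each shows 10 bases before a start and 15 from it, except that of Pabpc1, whose 15 bases begin at the start. Capitals mark the unbroken run of pyrimidines that begins at the start. They are shown because they carry the contrast between the elongation factors, a few members named Eif with a tract, and members named Eif without one.
Eef1a1, most upstream start, chr9:78481657-78481681, minus strand: cttggacgttCTTTTTCgcaacggg
Eef1b2, most used start, chr1:63177119-63177143, plus strand: cgctctgggtCCTTTTTTTCCCTCa
Eef1b2, second start in VLMC-1, chr1:63177148-63177172, plus strand: tggccgcggcCTCCCggcgctctcg
Eef1b2, start in VLMC-2, chr1:63177095-63177119, plus strand: tctctatataaggagttttccggac
Eef1d, most used start, chr15:75909292-75909316, minus strand: ggcgccctccCTCTCCTTTgcagtc
Eef2, most used start, chr10:81176636-81176660, plus strand: cgtcagcggtCTCTTCCgccgcagc
Pabpc1, upstream start, chr15:36608959-36608973, minus strand: CCCCTTCTCCCCggc
Eif4a2, most used start, chr16:23107748-23107772, plus strand: gtccgcctgtCTTTTCagtcgggcg
Eif2s3y, most used start, chrY:1010586-1010610, plus strand: gccacagccaCTTCCTTCTTTCgtg
Eif3i, most used start, chr4:129600602-129600626, minus strand: cattgcctctCTCCTCgcgtcaccg
Eif3c, most used start, chr7:126566397-126566421, minus strand: acgcccccccaaccttttcctcttc
Eif4a3, most used start, chr11:119300009-119300033, minus strand: ccgcggcttgCagttgtctttctgc

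Of the 107 starts, 27 were of the TOP type (25.2%, 17.3 to 34.6). The background over other genes was 511 of 12855 first-exon transcripts (3.98%, 3.64 to 4.33). Elongation factors had 16 of 29 (55.2%, 35.7 to 73.6) and initiation factors 10 of 75 (13.3%, 6.58 to 23.2). The intervals of both were above that of other genes and did not overlap each other, but they take transcripts of 1 gene as independent. The elongation factors were taken by name and include Eef1e1, a tRNA synthetase scaffold, and Eef2kmt, a methyltransferase of eEF2, each with 0 TOP starts of 3. The initiation factors are likewise all members named Eif. They include Eif4a3, a helicase of the exon junction complex (0 of 9), Eif6 (0 of 2) and Eif1ad (0 of 1). Ribosomal protein genes had 55 of 87 (63.2%, 52.2 to 73.3). A first base of C, whatever followed, stood at 58.6% of elongation factor starts, 29.3% of initiation factor starts, 65.5% of ribosomal protein starts and 14.4% of other starts. By cell, TOP starts made up 4 of 6 and 1 of 16 member starts in the VLMCs, 14 of 46 and 0 of 1 in the Oligo1 cells, and 1 of 13 and 7 of 25 in the Oligo5 cells.

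The elongation factor count was carried by few genes, with 10 of the 16 starts from Eef1b2, 3 from Eef1d, 2 from Eef2 and 1 from Eef1a1. Of the 14 first-exon transcripts of Eef1b2, 8 came from Oligo1-1. The contrast between the groups thus rests largely on 1 gene, and single genes were not left out in turn. Leaving out each cell in turn, the elongation factor share stayed between 43.8% and 65.2% and that of the initiation factors between 10.5% and 15.4%. The 4 first-exon transcripts of Eef1a1 began at 4 adjacent bases, which are the first 4 capitals of its line: the one from VLMC-1 at the C, and those from Oligo1-1 and Oligo5-1 at the next 3 bases, each a T. All 4 thus began inside the tract and only 1 met the definition of a TOP start. Both first-exon transcripts of Eef2, from Oligo1-1, began at the same C. Among the TOP-type genes named in the rule, 4 of 8 first-exon transcripts began with the tract, and Tpt1 had no transcript to read.

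Initiation factors with TOP starts were few and were led by Eif4a2, which encodes a helicase of the cap complex, with 4 of 6. Eif3i, an eIF3 subunit, had 2 of 3, Eif2s3y, the Y-linked gamma subunit of eIF2, had 2 of 4, and Eif2s2 and Eif3l had 1 each. Other members named Eif had no TOP start, for example Eif3c, with 0 of 10. Eif4a3, of the exon junction complex, had 0 of 9, and its most used start is a C with no tract after it. In the Eif3c line a pyrimidine run is seen a few bases downstream of the A at which 3 transcripts began. Taking each gene's most used start in place of single transcripts, 1 of 2 members with 10 or more first-exon transcripts (Eef1b2 and not Eif3c) had a TOP start, against 3 of 3 ribosomal protein genes and 6 of 216 other genes (2.78%).

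**Figure D3:**
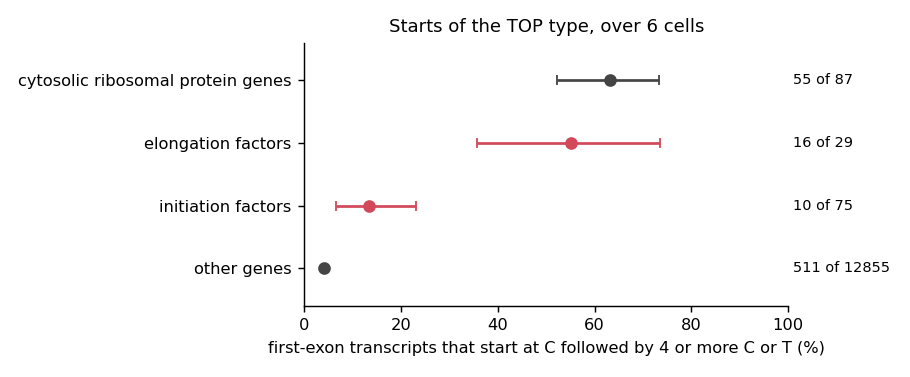
Percentage of first-exon transcripts whose start is of the TOP type (C followed by 4 or more pyrimidines), pooled over the 6 cells, with exact 95% intervals. Elongation factors, here all members named Eef (55.2%), lie near ribosomal protein genes (63.2%), and initiation factors, here all members named Eif (13.3%), lie between them and other genes (3.98%).

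How tightly the starts sat was measured as the share of a gene's first-exon transcripts within 5 bp of its most used start. Only Eef1b2 and Eif3c had the 10 first-exon transcripts set for this measure, and no TOP-type gene of the rule did (4 for Eef1a1, 2 for Eef2, 2 for Pabpc1, 0 for Tpt1). Eef1b2 had 10 of 14 within 5 bp (71.4%, 41.9 to 91.6), an interquartile range of 1 bp and 3 start sites over 53 bp. Eif3c had 4 of 10 (40%, 12.2 to 73.8), an interquartile range of 36.25 bp and 3 sites over 41 bp. The intervals of these genes overlapped. The median of 216 other genes was 50% within 5 bp with an interquartile range of 16.5 bp, and that of 3 ribosomal protein genes 86.7% with 1 bp. Pooled, 14 of 24 starts of both genes (58.3%) lay within 5 bp, and without Oligo1-1, which held 8 and 6 of their first-exon transcripts, neither gene reached the minimum.

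The starts of Eef1b2 differed by cell. All 9 first-exon transcripts of oligodendrocytes, 8 from Oligo1-1 and 1 from Oligo5-2, began within the 3 bases 63177129 to 63177131 of chromosome 1, at the head of the long tract. In VLMC-1, 1 began at 63177125 and 2 at 63177158, where a shorter tract stands, and in VLMC-2 both began upstream, at 63177105 and 63177106, outside any tract. The VLMC-2 molecules also both ended early, at 63177859 and 63177860, and their UMIs are the same letters shifted by 1 base. Whether they are copies of 1 molecule was not tested. Eif3c also differed by cell: 3 of the 4 first-exon transcripts of VLMC-2 began at 126566411 of chromosome 7, which none of the 6 of Oligo1-1 did. The UMIs of 2 of those 3 are also the same letters shifted by 1 base. Joining UMIs that differ by 1 substitution or such a shift left 3 transcripts of Eif3c in VLMC-2 and 5 in Oligo1-1, so the gene then falls below 10 first-exon transcripts. With at most 8 molecules in a cell, these are descriptions of single cells.

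At the lower minimum of 3 transcripts, chosen after seeing the data, the median elongation factor gene of 5 (Eef1e1 and Eef2kmt among them) had 100% of starts within 5 bp. The median initiation factor of 12 (Eif4a3 among them) had 66.7%, against 55.6% of 1056 other genes. With so few starts a gene can reach 100% easily, which raises every such median. Tight starts were not restricted to elongation factors: all 6 of Eif4a2 lay within 2 bp, all 5 of Eif4e within 5 bp and all 4 of Eif1ax within 3 bp. All 3 of Eef1d, a further exchange subunit of eEF1, began at 1 base, 1 from VLMC-2 and 2 from Oligo5-2. Wide starts were seen for Eif1b, over 169 bp with 5 transcripts, Eif3l, over 79 bp with 5, and Eif4a3, over 51 bp with 9. The starts of Pabpc1 lay 477 bp apart.

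**Figure D4:**
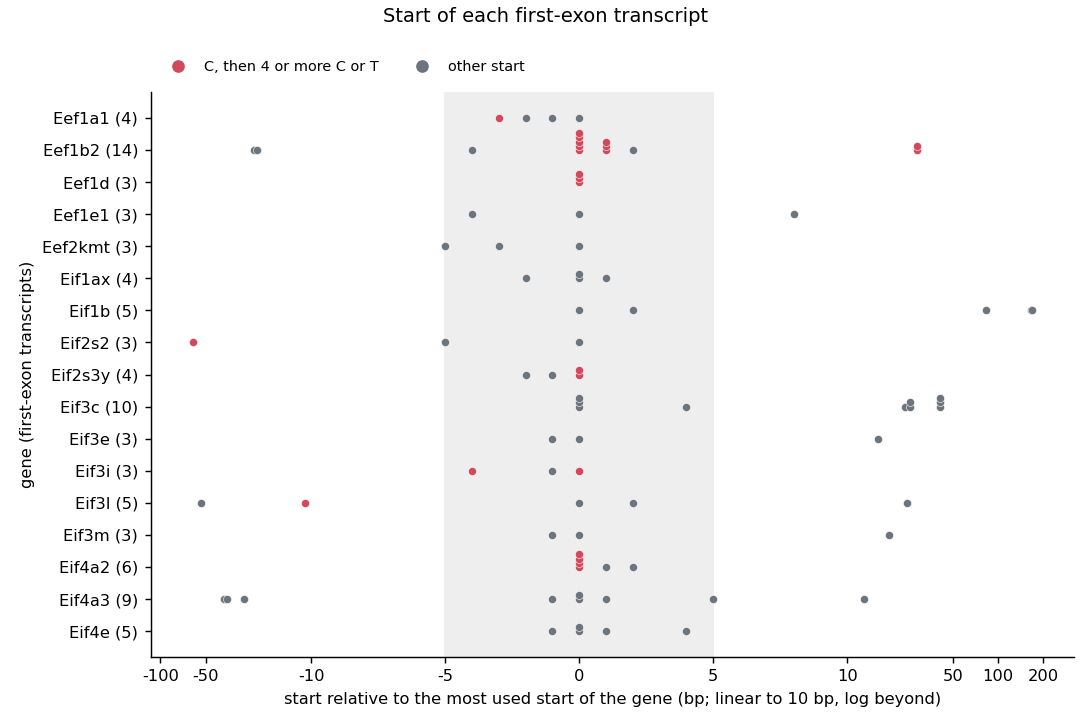
Position of the start of each first-exon transcript, in bp from the gene's most used start (horizontal axis, negative upstream, linear to 10 bp and logarithmic beyond), for members with 3 or more such transcripts. Each point is 1 transcript, red where the start is of the TOP type and grey elsewhere, and the shaded band marks 5 bp to either side; 10 of the 14 starts of Eef1b2 and 4 of the 10 of Eif3c lie in it.

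The leader, from the start of a transcript to the annotated start codon, could be measured for 102 first-exon transcripts of members, those with an annotated start codon downstream. Its median was 63 bases (range 3 to 356), against 85 for 10851 transcripts of other genes, and 18 were of 20 bases or fewer (17.6%, against 9.27%). Eif4e, the cap-binding protein, had the shortest leaders of the members with 5 or more, at 8 to 13 bases (median 12) in 2 transcripts of Oligo1-1 and 3 of Oligo5-2. Oligo5-2 is the cell with neuron markers, whose part in its values was not tested. The letters around the Eif4e start are shown here with the start codon in capitals and the start at the eleventh base.
Eif4e, chr3:138527275-138527299, plus strand: tgtgcgatcagatcgatctaagATG

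Short leaders were also found for Eef2kmt, a methyltransferase of eEF2 (3 to 8 bases, 3 transcripts of VLMC-2), and Eef1e1, a scaffold protein of the tRNA synthetase complex (5 to 17 bases, 1 transcript of Oligo1-1 and 2 of Oligo5-2). Among genes with TOP starts, leaders ran to 63 to 66 bases for Eef1a1, 69 for Eef1d, 81 for Eef2, 54 to 107 for Eef1b2, 32 to 34 for Eif4a2, 20 to 24 for Eif3i and 21 to 23 for Eif2s3y. The leader of the single TOP start of Eif3l was 33 bases and that of Eif2s2 127 bases. Eif1ax, the X-linked eIF1A, had the longest among genes with 3 or more transcripts, at 183 to 186 bases. One transcript of Pabpc1, from Oligo5-2, held all 15 annotated exons yet began 10 bases inside the coding sequence.

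The share of transcripts that reached the first exon differed between genes and between cells. Of all member transcripts 107 of 238 did so (45.0%, 38.5 to 51.5), against 36.3% of all transcripts. The share was 46.2% (6 of 13) and 43.2% (16 of 37) in the VLMCs, 68.7% (46 of 67) and 3.13% (1 of 32) in the Oligo1 cells, and 28.3% (13 of 46) and 58.1% (25 of 43) in the Oligo5 cells. The low share of Oligo1-2 is seen over all its genes too (12.3%), and the part of RNA quality or of the run in it was not tested. Eif4a3 reached the first exon in 9 of 9, Eif1ax in 4 of 4 and Eef1b2 in 14 of 17 transcripts. Eif4g2 did so in 0 of 21, Eif3a in 0 of 12 and Eif4g3 in 0 of 11. These genes draw on different cells and were not compared within a cell: Oligo1-2 gave 7 transcripts of Eif4g2 and 0 of Eif4a3.

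The genes at 0 have long annotated models, at 7995 bp for Eif4g2, 5125 bp for Eif3a and 6139 bp for Eif4g3. The model is the annotated form with the most exons and can be longer than the mRNA of these cells. Of the 21 Eif4g2 transcripts, 17 ended at base 3811 or 3812 of the model, so model length is not the length of the mRNAs found. Members with models of up to 1500 bp reached the first exon in 57.7% of transcripts (15 of 26), those above 1500 and up to 3000 bp in 56.7% (68 of 120) and longer ones in 26.1% (24 of 92), where other genes gave 70.3%, 44.7% and 23.7%. Across the 33 members with 3 or more transcripts, the share fell with model length with a Spearman rho of -0.51, a description across genes that share the same 6 libraries. By run, 40.5% of the 126 member transcripts seen only in the short run reached the first exon and 53.8% of the 78 seen only in the long run, with median aligned lengths of 718.5 and 1748 bp.

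Paralog use was read from the transcripts of each gene family. Of 35 transcripts of the eIF4G genes, 21 were Eif4g2 (60%, 42.1 to 76.1), 11 Eif4g3 and 3 Eif4g1, the main scaffold of the cap complex. In VLMC-1 each had 1, and in VLMC-2 Eif4g3 led with 4 of 7, whereas in the Oligo1 cells Eif4g2 had 7 of 9 and 7 of 8. Oligo5-1 had 1 each of Eif4g2 and Eif4g3, and Oligo5-2 had 3 of 6 for Eif4g2. The interval of Eif4g2's share in VLMC-2 (3.67% to 71.0%) overlapped those of Oligo1-1 (40% to 97.2%) and Oligo1-2 (47.3% to 99.7%).

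Among the eIF4A helicases, Eif4a2 and Eif4a3 had 9 transcripts each, and Eif4a1 had none. Eif4a2 had 1 in each VLMC, 4 and 0 in the Oligo1 cells and 1 and 2 in the Oligo5 cells. Eif4a3 had 0 and 2 in the VLMCs, 3 and 0 in the Oligo1 cells and 2 in each Oligo5 cell. Neither had a transcript in Oligo1-2, and in no cell did the interval exclude equal shares. Eif1b had 7 transcripts, in every cell but VLMC-1, against none of Eif1, whose 20 copies are given above. Of the cap-binding proteins, Eif4e had 7 transcripts, Eif4e2 had 1 and Eif4e3 none. The inhibitory binding proteins Eif4ebp1, Eif4ebp2 and Eif4ebp3 had none.

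Eif1a and Eif1ax encode eIF1A from different chromosomes, with 5 and 4 transcripts. Eif1a had 4 in VLMC-2 and 1 in Oligo5-2, Eif1ax had 2 in Oligo1-1 and 2 in Oligo5-1, and no cell held both. Without VLMC-2, Eif1a fell to 1 of 5 (20%). The 5 transcripts of Eif1a became 4 once UMIs that differ by 1 letter were joined, and 4 of the 5 were single blocks with no junction, so reads of its 3 annotated copies cannot be told apart from its own by splicing.

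Eif2s3y had 6 transcripts, 2 in Oligo5-1 and 4 in Oligo5-2, and its X-linked paralog Eif2s3x, with 2 copies in the genome, had none in any cell. Another gene pair on the sex chromosomes split by cell as well: Ddx3y had 1 transcript in Oligo5-1 and 3 in Oligo5-2, and Ddx3x had 10 in VLMC-2 and 3 and 1 in the Oligo1 cells. Xist, the RNA of the inactive X chromosome, had 1 transcript, in Oligo1-2. Transcripts of these Y-linked genes were thus found only in the Oligo5 cells among the 6, and the sex of the animals is not given in the labels. Cell type and sex of the animal cannot be told apart for Eif2s3y. Eef1a1 had all 5 transcripts of its pair and Eef1a2, the form of neurons and muscle, had none. Of the kinases that phosphorylate eIF2, Eif2ak4 had 3 transcripts (1 each in Oligo1-1, Oligo1-2 and Oligo5-1), Eif2ak3 had 1 in Oligo5-1, and Eif2ak1 and Eif2ak2 had none. Eif5a had 1 transcript, in Oligo5-2, and Eif5a2 none.

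Exon structures followed the annotation closely. Of 1186 junctions in member transcripts, 1171 lay within 1 bp of an annotated junction (98.7%, 97.9 to 99.3), against 96.9% of 112711 in other genes. All exons of the annotated model were held by 61 transcripts of 23 members, and 38 transcripts were a single block. Eif4g2 had 9 structures among its 21 transcripts, of which none held all 22 exons and 9 were a single block. By contrast all 9 transcripts of Eif4a3, from 4 cells, held the same 12 exons with 99 of 99 junctions annotated. Eef1b2 held all 6 exons in 10 of 17.

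Most skipped exons of members were in annotated forms. Exon 11 of Eif4a2 (107 bp, chr16:23112351-23112457) was skipped in 7 of the 9 transcripts that spanned it: 0 of 1 and 1 of 1 in the VLMCs, 3 of 4 in Oligo1-1, and 1 of 1 and 2 of 2 in the Oligo5 cells. Exon 4 (140 bp) was skipped in 2 of 7. Neither length is a multiple of 3, the remainder being 2 bases for each. Exons 2 and 3 of Eef1d, which hold the coding sequence particular to its long form, were left out of all 4 spanning transcripts: 1 from VLMC-2 and 2 from Oligo5-2 skipped these exons alone, and another from VLMC-2 skipped exons 1 to 3. The Naca transcript skipped the 5916-bp exon 3 of the long muscle form.

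Junctions absent from the annotation were 15 in all. Eef1b2 had 2, both in Oligo1-1, one skipping exon 5 and one skipping exons 3 to 5, with 1 and 2 reads. Eif3l had 3, skipping exons 7 to 10 in Oligo1-1 and exons 7 and 8 in Oligo5-1, and 1 without a skipped exon in Oligo5-2. In Eif3m, another eIF3 subunit, 2 transcripts of Oligo1-1 left out the last 2 of 11 exons and joined to a block 12267 bp further on, past the annotated end of the gene, with 7 reads and 1 read. The UMIs of these transcripts are the same letters shifted by 1 base, and joining them left 2 transcripts of Eif3m in place of 3.

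Ends were compared with the annotated ends of each gene. Of the 21 Eif4g2 transcripts, 17 ended within 20 bp of an annotated end (81.0%, 58.1 to 94.6), all of them at 111071933 or 111071934 of chromosome 7, although none reached the first exon. Another 3, from Oligo1-1 and Oligo1-2, ended 1202 to 1374 bp past the nearest annotated end, and 1 from VLMC-2 ended elsewhere in the longest form. Over all members 157 of 238 ended at an annotated end (66.0%), against 58.8% in other genes. Eif3d and Eif3l did so in 10 of 10, and Eif1b and Eif6, a factor that keeps the ribosomal subunits apart, in 7 of 7. Eif4g3 did so in 0 of 11, with 7 sites, Eif3a in 2 of 12, with 9 sites, and Eif4e in 0 of 7. Of the Eif4g3 ends, 3 lay 21 or 22 bp short of an annotated end and so just missed the window of 20 bp.

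Eif4e ended at different places in different cells. Both first-exon transcripts of Oligo1-1 ended at 138556687 or 138556688 of chromosome 3, and those of Oligo5-2 at 138557191 or 138557192, further downstream. The single-block transcripts of Oligo5-2 and Oligo1-2 ended at 138556455 and 138556908. Joining UMIs that differ by a substitution or a shift of 1 base left 5 of the 7 transcripts.

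Eif3c was split between ends far apart. Of its 10 first-exon transcripts, 8 (4 from VLMC-2 and 4 from Oligo1-1) ended within 2 bp of 126563741, inside coding exon 5 of 21, and so covered only the head of the mRNA. The 4 transcripts that did not reach the first exon, 2 from Oligo1-2 and 1 from each Oligo5 cell, ended between 126546912 and 126546916, in the last exon and short of the annotated end. The letters at the early end are shown since they hold many A, at which an oligo(dT) primer can bind within an mRNA. Capitals mark the 10 bases after the end, of which 7 are A, and an Eif4g3 end found in 2 transcripts of VLMC-2 and 1 of Oligo1-2 is shown beside it, also with 7 A.
Eif3c, end in exon 5, chr7:126563731-126563752, minus strand: ctttgggaagatAAAGAAGGAA
Eif4g3, end in the last exon, chr4:138207043-138207067, plus strand: cgagcattgcaagttTAAAATAAAG

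Among member ends elsewhere than at an annotated end, 35 of 74 with known letters (47.3%, 35.6 to 59.3) had 6 or more A in the next 10 bases. At annotated ends this was 10 of 86 (11.6%, 5.72 to 20.3), and along all windows of the members' mRNAs 5.31% of 137202. Letters were known for 74 of the 81 ends elsewhere but for only 86 of the 157 at annotated ends, so these shares are not like for like. Other genes gave 45.5% elsewhere and 28.5% at annotated ends. Priming at such sites within the mRNA was not tested.

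**Figure D5:**
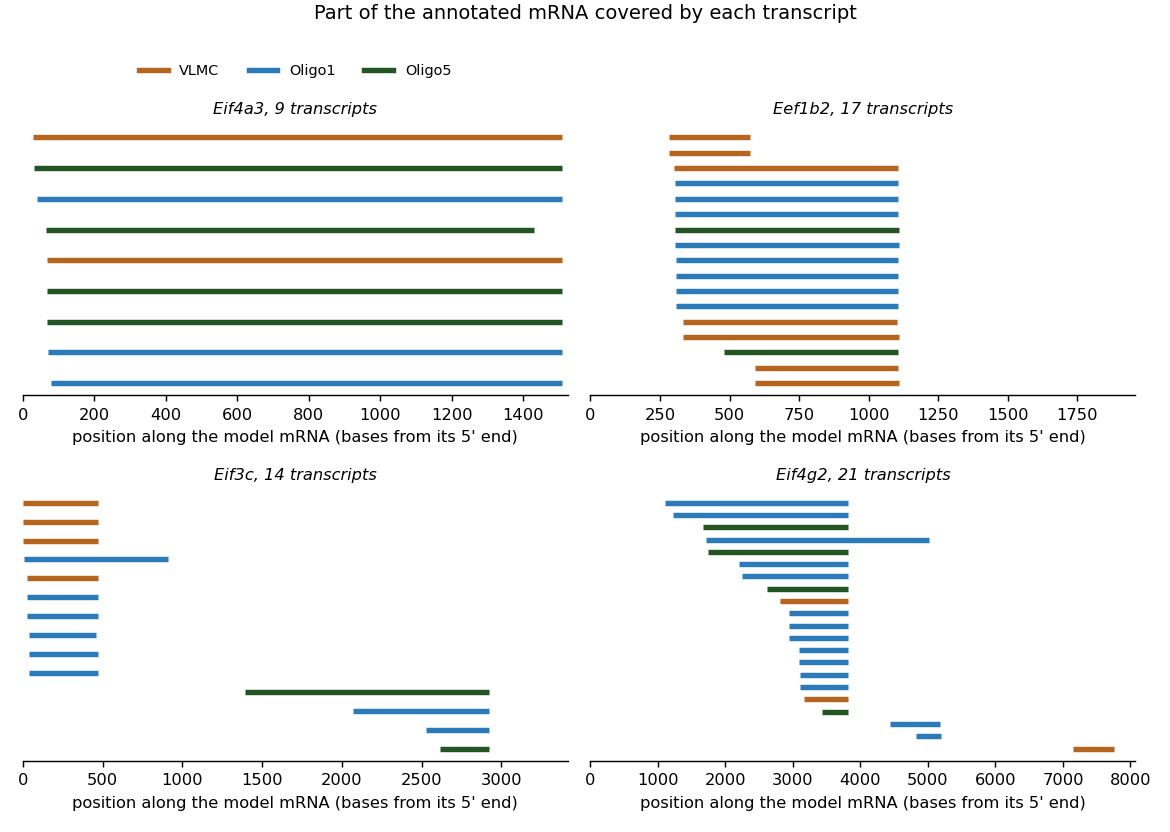
Part of the annotated mRNA covered by each transcript of Eif4a3, Eef1b2, Eif3c and Eif4g2, with position along the model mRNA in bp (horizontal axis) and 1 line for each transcript from its start to its end, coloured by cell type; ends outside the model's exons are drawn at the nearest exon base and skipped exons are not shown. Eif4a3 is covered nearly in full in 9 transcripts, Eif3c is covered at its head or its tail, and no Eif4g2 transcript reaches the first exon.

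Of 24 other names of translation genes in a fixed list, 19 had transcripts, 97 in all. The list holds Rack1 and its older symbol Gnb2l1, which are 1 gene, with 9 transcripts under Gnb2l1 and 0 under Rack1. Ddx3x, a helicase of the leader, had 14, of which 10 were in VLMC-2, and Paip2, an inhibitor of the poly(A)-binding protein, had 11. Pabpc4, a further poly(A)-binding protein, and Larp1, which binds TOP mRNAs, had none in any of the 6 cells.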

How the data were processed

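The authors made the deposited transcript table from circular consensus reads of 2 Pacific Biosciences runs. Reads were aligned to mm10 (GRCm38), with GSNAP in the submitters' processing notes and GMAP in the study's methods. Only uniquely aligned molecules were kept, blocks under 40 bp apart were joined, genes were named from RefSeq, and reads of 1 UMI were merged. The deposited values used here are counts of reads per transcript and the exon positions, which count starts from 0, so 1 was added. Depth was 2338 to 11483 transcripts a cell, and only counting error is covered by the intervals.

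Transcripts were counted per gene and cell, and starts, junctions and ends were compared with GENCODE M21, in Python 3.11.15 with pandas 2.3.3 and scipy 1.17.1. Letters came from GENCODE transcripts and RefSeq promoter windows, which 37 of the 47 members had. Copies were found with BLAST+ 2.17.0. A first-exon transcript starts in the annotated first exon or up to 50 bp before it. Starts or ends within 5 bp were chained into 1 site. The planned minimums were 20 transcripts for separation, structures and ends and 10 first-exon transcripts for starts. The counting code was tested on simulated data. Transcripts of several genes were left out. Some single-gene values outside the members are not reported here.

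No test was made, since a cell type is 1 sample. The members and lists were chosen with earlier results of these data known. By rule, members with 20 or more transcripts, the 6 most abundant, the TOP-type genes and the paralogs were named. Others named were chosen after their values were seen. Alternatives were single reads left out, UMIs joined, either run alone, other windows and minimums, and each cell left out. The lower minimums of 3 and 2, the pooling over all members and the joining of shifted UMIs were chosen after seeing the data.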

Additional observations from a re-analysis of the deposited data

Results flagged for a closer look

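Among the 356 transcripts laid to several overlapping genes, which the counts above leave out, 4 named a translation factor gene, a signal outside the single-gene names. Eif4a2 was named together with its neighbour Rfc4 in VLMC-1 (4 reads, 10 exon blocks) and in Oligo1-1 (8 reads, 11 blocks). Eif3m was named with Ccdc73 in Oligo5-1 (3 reads, 11 blocks). Eif2ak1 was named with Aimp2 in Oligo1-1 (3 reads, 1 block), and is otherwise without a transcript in the table. To which of the genes each transcript belongs was not tested.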

How the results depend on the processing

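Over 29 results and 237 alternative values, 220 stayed within the interval of the reported value or within 1.5 times of a count, and 17 moved. Some values could not move. Where the other paralog had no transcript, as for Eif1b, Eif2s3y, Eef1a1 and Eif5a, the share was 100% under every alternative. Many others are parts of the same few transcripts set against wide intervals, so these counts do not measure stability. Whether a value changed direction was not checked. The family share of 0.649% became 0.750% with UMIs that differ by 1 substitution joined (233 of 31072 transcripts) and 0.783% with those that differ by a shift of 1 base joined too (218 of 27831). Both rises reflect the smaller total, which was 36659 before joining, since the members fell only from 238. Whether joined UMIs came from 1 molecule was not tested, so these are not corrected shares. The number of members whose shares did not overlap between VLMCs and oligodendrocytes was 0 at 20 transcripts, 3 at a minimum of 10, 1 (Eif3l) at that minimum with the same joining, and 1 (Eif4g2) without Oligo5-1. Starts within 5 bp went from 58.3% to 26.3% when transcripts that miss the first exon were included (25 of 95), which brings in 7 genes in place of 2. For Eef1b2 and Eif3c alone that value was 45.2% (14 of 31). Without VLMC-2 it was 83.3% (10 of 12), from Eef1b2 alone, which stood at 71.4% with all cells. The number of members whose most used start was of the TOP type went from 1 to 6 of 22 at a minimum of 2 first-exon transcripts. Leaving out each cell in turn gave 0.624% to 0.679% for the family share, 0 to 1 for the separated members (without VLMC-1 and without Oligo5-1, since Eif4g2 fell below 20 without any other cell), 56.5% to 83.3% for the starts, 51.9% to 67.9% for Eif4g2 among the eIF4G genes, 8 to 9 Eif4g2 structures and 77.8% to 85.7% of Eif4g2 ends at an annotated end. Several alternatives gave no value: no gene of the starts reached its minimum without Oligo1-1, with UMIs read 2 or more times or at 20 transcripts, no member reached 50 transcripts, and no Eif4g2 transcript reached the first exon. Among single values, the first-exon share was 35.7% without Oligo1-1, and the share of all member ends at an annotated end was 49.6% within 5 bp and 51.3% with ends of RefSeq-linked transcripts only. Depth limits all of these, with 1 member above 20 transcripts. No paired analysis was possible because no result comes from a test and a replicate number only names a cell.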
